A study of Mus musculus with 2 samples.

Results

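The cytochrome P450 genes were examined in 2 sections of mouse kidney profiled by Visium spatial transcriptomics, in which RNA is captured on a grid of barcoded spots and counted by unique molecular identifiers (UMIs). Members were all genes listed in the data whose symbol is Cyp followed by a digit, without pseudogene symbols that hold "-ps". This gave 101 of the 32285 listed genes, in 17 families. The symbol Cyp4x1os, a transcript from the strand opposite to a P450 gene, was taken in by the same rule.

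Both kidneys came from C57BL/6 mice that had undergone unilateral ureteral obstruction (UUO), an operation that blocks the outflow of 1 kidney, and were taken 7 days afterwards. The first mouse had been given SH045, a larixyl carbamate that inhibits the TRPC6 cation channel, and the other mouse Vehicle. With 1 section of 1 mouse per treatment, treatment, animal, section and slide cannot be told apart. No difference between the sections was tested, and all intervals below are exact 95% intervals that cover counting error only.

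Cytochrome P450 enzymes are haem proteins that insert oxygen into lipids, steroids, vitamins and foreign compounds. Most take their electrons from P450 oxidoreductase in the endoplasmic reticulum, and a few mitochondrial members from ferredoxin. In the kidney they are known above all from the proximal tubule, where CYP4A and CYP2J enzymes turn arachidonic acid into mediators of salt handling and vascular tone, and where vitamin D is activated and broken down.

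The SH045 section held 790 spots with 22388623 UMIs, a median of 27733 per spot, and 4.24% of them were mitochondrially encoded. The Vehicle section held 676 spots with 4327613 UMIs, a median of 4933 per spot, and 10.4% were mitochondrially encoded. All 790 SH045 spots, but 570 of the 676 Vehicle spots, were marked as lying over tissue in the deposited position tables. The Vehicle table marked 1210 spots as tissue in all, more than its matrix holds, so its blocks and edge distances rest on the spots of the matrix. The section labelled Vehicle went against its UUO label: the tubule injury markers Havcr1 and Lcn2 stood at 992 and 1233 UMIs per 1000000 UMIs of the section (CPM) with SH045, against 1.62 and 2.08 CPM in the section labelled Vehicle. Every direction below therefore sets the SH045 section against a section with low injury markers, whatever its treatment was, and the 2 are called the SH045 kidney and the Vehicle-labelled kidney. The 2 matrices shared 335 spot barcodes, which mark grid positions that both slides have in common.

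P450 transcripts made up 38742 UMIs, or 0.173%, of the SH045 kidney and 22535 UMIs, or 0.521%, of the Vehicle-labelled kidney. The summed P450 level was 1730 CPM (interval 1713 to 1748) in the SH045 kidney and 5207 CPM (5139 to 5276) in the Vehicle-labelled kidney, 3.01-fold lower in the SH045 kidney (2.96 to 3.06). In such bulk levels of a spot or section, fewer cells of a type and less RNA per cell cannot be told apart. Restricting the Vehicle-labelled kidney to spots marked as tissue gave 5215 CPM. Spots over the whole area carried P450 UMIs: the median spot held 34 in the SH045 kidney and 22 in the Vehicle-labelled kidney, and 0 SH045 spots and 2 Vehicle spots held none.

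**Figure D1:**
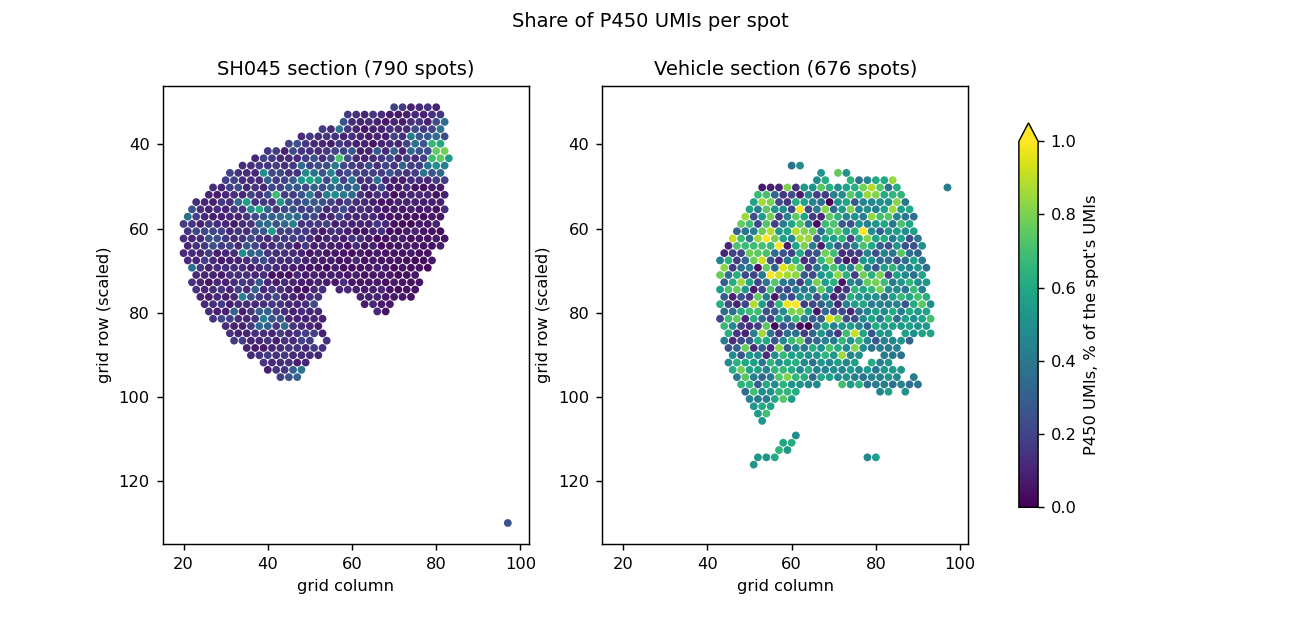
Share of each spot's UMIs that came from P450 genes, by position on the capture grid (grid column against scaled grid row), in the SH045 section on the left and the Vehicle section on the right. Each point is 1 spot, and shares above 1% have the top colour. High shares in the SH045 section lie in a band and a patch among low ones, whereas the Vehicle section is higher nearly throughout, 0.173% against 0.521% over all UMIs.

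Of the 101 members, 60 had at least 1 UMI, 58 of them in the SH045 kidney and 48 in the Vehicle-labelled kidney, and 41 had none. A member was taken as measured at 10 CPM or more in either section, which held for 32 members, and 28 members had UMIs below that level. A measured member was called higher or lower at a difference of at least 1.5-fold on the log2(CPM + 1) scale. By this rule 7 members were higher, 16 were lower and 9 lay within 1.5-fold in the SH045 kidney. Among all 10463 genes measured the same way, 52.2% were higher and 11.8% lower, so the balance of P450 calls was the reverse of that of all genes. Their median log2 difference was −0.73, beside 0.63 over all genes.

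The choice of scale moved these counts. Relative to the all-gene median, 4 P450 genes were higher and 21 lower, beside 25.4% and 25.7% of all genes. With TMM or median-of-ratios factors, 3 were higher and 22 lower. Scaled to the summed proximal tubule markers, which were themselves lower in the SH045 kidney, 34 members were measured, and 18 were higher and 8 lower, beside 92.3% and 1.29% of all genes. Under that last scale 7 of the 16 lower members changed direction, and under the other scalings none of the 23 called members did. Each of these scalings shifts every fold by 1 factor, and changes of direction were not counted over all genes. The level was passed only through the SH045 kidney by 5 measured members (Cyp1b1, Cyp7b1, Cyp4v3, Cyp4f18 and Cyp39a1) and only through the Vehicle-labelled kidney by 4 (Cyp2d12, Cyp26b1, Cyp2c23 and Cyp2u1). Such members had to differ. Of the 23 members above 10 CPM in both sections, 2 were higher and 12 lower.

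As a measure of spread within a section, each section was divided into 4 blocks of spots by position. The block values of the SH045 and Vehicle-labelled kidneys did not overlap for 23 of the 32 measured members, beside 69.8% of all genes. A share this close to that of all genes says nothing about P450 genes in particular.

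**Figure D2:**
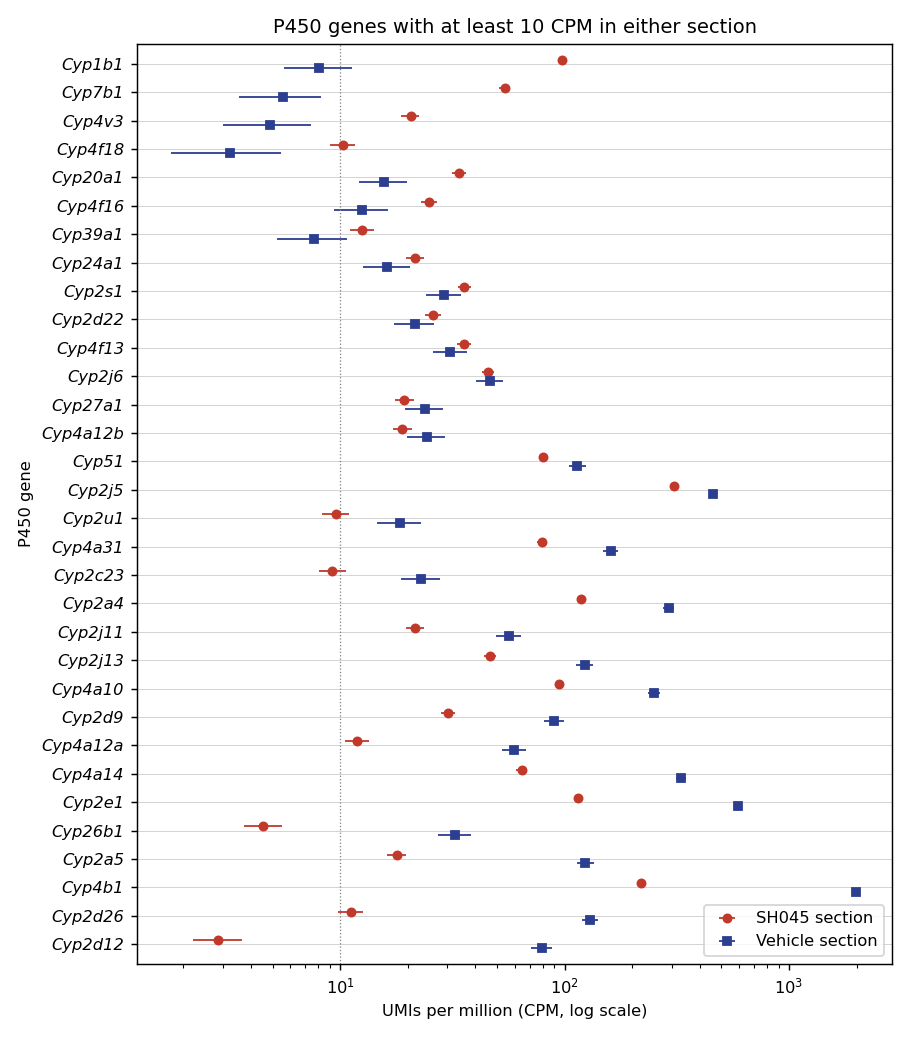
Level of the 32 measured P450 genes in the SH045 section (red circles) and the Vehicle section (blue squares), in CPM on a log axis, sorted by their difference. Bars are exact 95% Poisson intervals of the counts, with 1 section per group, and the dotted line marks 10 CPM. Cyp1b1 at the top was 12.0-fold higher in the SH045 section and Cyp2d12 at the bottom 27.7-fold lower.

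Promoter sequences are shown for 4 members that carry the main contrasts. Cyp2a4 and Cyp2a5 are nearly identical genes on chromosome 7 whose levels were highest in different regions of the SH045 kidney. Their RefSeq windows (GRCm38.p6, plus strand, from 250 bases before to 50 bases after the gene start) lie at chr7:26306942-26307241 and chr7:26835089-26835388. The windows were 97.7% identical over the alignment, with 5 substitutions and 2 unmatched bases, and capitals mark the differing bases.
Cyp2a4: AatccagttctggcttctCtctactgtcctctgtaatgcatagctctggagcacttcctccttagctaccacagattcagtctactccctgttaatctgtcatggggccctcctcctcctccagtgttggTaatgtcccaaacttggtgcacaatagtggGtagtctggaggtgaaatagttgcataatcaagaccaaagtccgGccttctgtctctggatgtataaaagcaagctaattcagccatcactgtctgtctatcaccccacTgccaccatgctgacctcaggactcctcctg
Cyp2a5: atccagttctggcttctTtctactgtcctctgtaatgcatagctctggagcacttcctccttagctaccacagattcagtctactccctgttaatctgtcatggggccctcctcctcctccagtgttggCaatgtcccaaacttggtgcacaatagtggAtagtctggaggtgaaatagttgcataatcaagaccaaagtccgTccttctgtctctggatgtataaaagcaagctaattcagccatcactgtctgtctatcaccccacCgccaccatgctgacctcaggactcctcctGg

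The other 2 windows belong to a gene that was low and a gene that was high in the SH045 kidney. Cyp2e1 (chr7:140763569-140763868, plus strand) is shown with its TATAAA box in capitals. Cyp1b1 (chr17:79715012-79715311, minus strand) is shown with its GCGTG core, here on the opposite strand, in capitals. GCGTG is the core letters of the site bound by the aryl hydrocarbon receptor.
Cyp2e1: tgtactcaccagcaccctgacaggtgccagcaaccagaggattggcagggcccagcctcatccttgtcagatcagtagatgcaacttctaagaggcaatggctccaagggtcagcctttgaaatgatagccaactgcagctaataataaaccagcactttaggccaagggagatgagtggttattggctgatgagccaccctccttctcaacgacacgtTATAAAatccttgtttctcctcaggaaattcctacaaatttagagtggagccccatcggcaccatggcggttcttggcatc
Cyp1b1: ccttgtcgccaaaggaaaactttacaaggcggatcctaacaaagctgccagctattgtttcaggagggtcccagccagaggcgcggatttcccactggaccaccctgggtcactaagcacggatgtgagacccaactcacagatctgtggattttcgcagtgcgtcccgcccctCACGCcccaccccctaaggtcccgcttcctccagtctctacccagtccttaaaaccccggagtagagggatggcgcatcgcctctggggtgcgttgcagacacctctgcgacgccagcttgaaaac

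RefSeq windows were found for 78 of the 101 members. TATAAA on either strand was present in 31 of those 78 windows (39.7%), beside 14.2% of 27025 mouse promoter windows of the same length. It was present in 6 of the 9 windows of lower members, Cyp26b1, Cyp2a4, Cyp2a5, Cyp2e1, Cyp2d9 and Cyp2d26, and in 0 of the 5 windows of higher members. GCGTG on either strand was present in 17 of 78 windows (21.8%), beside 32.5% of all promoters, and in 1 of 9 lower and 4 of 5 higher members. The hormone receptor half-site AGGTCA was found in 20 of 78 windows and 16.0% of all. These letter matches are descriptions only, and many members of a subfamily share promoter sequence.

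The fatty acid hydroxylases of the CYP4 family summed to 588 CPM in the SH045 kidney and 2872 CPM in the Vehicle-labelled kidney. Cyp4b1, which oxidises fatty acids and activates some lung and kidney toxins, accounted for most of that difference. It had 4880 UMIs and 218 CPM (212 to 224) in the SH045 kidney, against 8605 UMIs and 1988 CPM (1947 to 2031) in the Vehicle-labelled kidney, 9.12-fold lower (8.81 to 9.45). The 4 blocks ranged from 78.0 to 294 CPM in the SH045 kidney and from 1743 to 2358 CPM in the Vehicle-labelled kidney, so they did not overlap. Cyp4b1 held 12.6% of all P450 UMIs in the SH045 kidney and 38.2% in the Vehicle-labelled kidney. Without it the summed level was 1512 CPM in the SH045 kidney and 3219 CPM in the Vehicle-labelled kidney, 2.13-fold lower.

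The omega-hydroxylases of the CYP4A subfamily, whose genes lie beside Cyp4b1 on chromosome 4, followed at a smaller size, with 269 CPM in the SH045 kidney and 824 CPM in the Vehicle-labelled kidney. Cyp4a14 stood at 64.3 CPM in the SH045 kidney and 330 CPM in the Vehicle-labelled kidney, 5.13-fold lower (4.76 to 5.52). Cyp4a10, like Cyp4a14 a known target of the fatty acid receptor PPAR alpha in mouse, stood at 94.8 CPM in the SH045 kidney, 2.64-fold lower (2.45 to 2.84), and Cyp4a31 at 79.2 CPM with SH045 against 161 CPM in the Vehicle-labelled kidney. Cyp4a12a, the main producer of the vasoconstrictor HETE lipid in male mouse kidney, stood at 11.9 CPM in the SH045 kidney and 59.6 CPM in the Vehicle-labelled kidney, 5.0-fold lower (4.2 to 5.95). Its near-identical neighbour Cyp4a12b differed little, with 18.9 CPM with SH045 against 24.3 CPM in the Vehicle-labelled kidney. Reads can be split between these copies by the counting, so the pair is better read as a sum, 30.9 CPM in the SH045 kidney and 83.9 CPM in the Vehicle-labelled kidney, 2.72-fold lower. The gene cluster Cyp4x1 to Cyp4b1 on chromosome 4 (GRCm38.p6, 115106323 to 115647721) held 6 measured members. Of these 5 were lower, beside 11.8% of all genes, and Cyp4a12b lay within 1.5-fold. Scaled to the proximal markers, Cyp4a10 and Cyp4a31 turned to 1.02-fold and 1.33-fold higher.

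Outside that cluster, 3 CYP4 genes were higher. Cyp4v3, the mouse counterpart of a human fatty acid hydroxylase linked to retinal degeneration, stood at 20.6 CPM in the SH045 kidney and 4.85 CPM in the Vehicle-labelled kidney, 4.24-fold higher (2.74 to 6.92). Cyp4f18, which inactivates leukotriene B4 in mouse neutrophils, stood at 10.3 CPM with SH045 against 3.24 CPM in the Vehicle-labelled kidney, 3.18-fold higher (1.85 to 5.90). Cyp4f16 stood at 24.9 CPM with SH045 against 12.5 CPM in the Vehicle-labelled kidney, 1.99-fold higher (1.51 to 2.69). Cyp4v3 and Cyp4f18 were also higher relative to the all-gene median, whereas Cyp4f16 was not.

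The CYP2 family, the largest with 49 members, summed to 805 CPM in the SH045 kidney and 2104 CPM in the Vehicle-labelled kidney, a direction that flips to 1.03-fold higher when scaled to the proximal markers. Of its 14 measured members 10 were lower and 0 higher, beside 11.8% and 52.2% of all genes. Among the lower ones, Cyp2a4, Cyp2c23, Cyp2j11, Cyp2j13 and Cyp2u1 turned to the higher direction when scaled to the proximal markers. Cyp2e1, which oxidises ethanol and other small molecules, stood at 114 CPM (110 to 119) in the SH045 kidney and 595 CPM (572 to 618) in the Vehicle-labelled kidney, 5.20-fold lower (4.92 to 5.49). Its blocks ranged from 38.7 to 162 CPM in the SH045 kidney and from 485 to 748 CPM in the Vehicle-labelled kidney.

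Among the arachidonic acid epoxygenases and related genes, Cyp2j5 and Cyp2j6 differed less than the CYP2 sum, which was 2.61-fold lower. Cyp2j13, Cyp2j11 and Cyp2c23 differed by about as much as that sum. Cyp2j5, the main CYP2J enzyme of mouse kidney, stood at 307 CPM (299 to 314) in the SH045 kidney and 458 CPM (438 to 479) in the Vehicle-labelled kidney. Its log2 difference of −0.58 lay just inside the 1.5-fold limit and was the nearest to it, while Cyp39a1 with 0.65 was the nearest of the called members. Cyp2j5 thereby took the largest part of the SH045 kidney's P450 UMIs, 17.7%. Cyp2j13 and Cyp2j11, its neighbours on chromosome 4, stood at 46.7 and 21.5 CPM in the SH045 kidney and at 123 and 56.6 CPM in the Vehicle-labelled kidney, both lower. Cyp2j6 stood at 45.5 CPM with SH045 against 46.4 CPM in the Vehicle-labelled kidney. Cyp2c23, a renal epoxygenase also known as Cyp2c44, stood at 9.25 CPM in the SH045 kidney and 22.9 CPM in the Vehicle-labelled kidney, 2.47-fold lower (1.93 to 3.16). The lower direction of Cyp2j5, Cyp2j11, Cyp2j13 and Cyp2c23 turned when scaled to the proximal markers.

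The widest difference of a measured member was that of Cyp2d12. Its cluster, Cyp2d on chromosome 15, summed to 70.5 CPM in the SH045 kidney and 321 CPM in the Vehicle-labelled kidney. Cyp2d12 had 64 UMIs and 2.86 CPM in the SH045 kidney, against 343 UMIs and 79.3 CPM in the Vehicle-labelled kidney, 27.7-fold lower (21.2 to 36.8). Cyp2d26 stood at 11.2 CPM with SH045 against 130.3 CPM in the Vehicle-labelled kidney, 11.7-fold lower (10.0 to 13.6). Cyp2d9, which hydroxylates testosterone in male mice, stood at 30.3 CPM with SH045 against 89.9 CPM in the Vehicle-labelled kidney, 2.97-fold lower. Cyp2d22 of the same cluster did not follow, with 26 CPM in the SH045 kidney and 21.5 CPM in the Vehicle-labelled kidney. These genes are close copies of one another, so the division of counts between them is uncertain.

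Cyp2a4, a testosterone hydroxylase, stood at 119 CPM in the SH045 kidney and 291 CPM in the Vehicle-labelled kidney, 2.45-fold lower (2.29 to 2.63). Cyp2a5, the mouse coumarin hydroxylase, stood at 17.9 CPM with SH045 against 124 CPM in the Vehicle-labelled kidney, 6.92-fold lower (6.07 to 7.90). Their intervals do not overlap, but the genes are so alike that the split of counts is uncertain, and the sum was 136.5 CPM in the SH045 kidney and 415 CPM in the Vehicle-labelled kidney, 3.04-fold lower. Cyp2u1, a fatty acid hydroxylase, stood at 9.56 CPM with SH045 against 18.5 CPM in the Vehicle-labelled kidney, 1.93-fold lower. Of the 14 genes of the large Cyp2c cluster on chromosome 19, 4 had UMIs, all in the SH045 kidney and 1 each. The floor that 3 counts set was 0.134 CPM in the SH045 kidney and 0.693 CPM in the Vehicle-labelled kidney.

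Among members that act on sterols and hormones, Cyp1b1 and Cyp7b1 were higher by wide margins. Both passed 10 CPM only through the SH045 kidney, so their direction was set by the filter. Cyp51 and Cyp27a1, above 10 CPM in both sections, lay within 1.5-fold. Cyp1b1, an oestrogen and xenobiotic hydroxylase induced through the aryl hydrocarbon receptor, had 2176 UMIs and 97.2 CPM (93.2 to 101) in the SH045 kidney, against 35 UMIs and 8.09 CPM (5.63 to 11.2) in the Vehicle-labelled kidney, 12.0-fold higher (8.61 to 17.3). Blocks ranged from 90.7 to 106 CPM in the SH045 kidney and from 4.99 to 10.9 CPM in the Vehicle-labelled kidney. Its sister genes did not share this: Cyp1a1 had 75 UMIs (3.35 CPM) in the SH045 kidney and 13 UMIs (3.00 CPM) in the Vehicle-labelled kidney, and Cyp1a2 had none.

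Cyp7b1, the hydroxylase of oxysterols and of the steroid DHEA, had 1214 UMIs and 54.2 CPM (51.2 to 57.4) in the SH045 kidney, against 24 UMIs and 5.55 CPM (3.55 to 8.25) in the Vehicle-labelled kidney, 9.78-fold higher (6.54 to 15.3). Its SH045 blocks ranged from 29.5 to 76.1 CPM and its Vehicle blocks from 0 to 15.6 CPM. Cyp39a1, another oxysterol hydroxylase, stood at 12.6 CPM with SH045 against 7.63 CPM in the Vehicle-labelled kidney, 1.65-fold higher (1.15 to 2.44), with overlapping blocks. Cyp20a1, an orphan member with no settled substrate, stood at 33.7 CPM with SH045 against 15.7 CPM in the Vehicle-labelled kidney, 2.15-fold higher (1.67 to 2.79). Neither Cyp39a1 nor Cyp20a1 was higher by 1.5-fold relative to the all-gene median. Cyp51, the sterol demethylase of cholesterol synthesis, lay within 1.5-fold, with 80.3 CPM in the SH045 kidney and 114 CPM in the Vehicle-labelled kidney. Of the 19 genes of cholesterol synthesis and uptake, 10 were lower and 2 higher, beside 11.8% and 52.2% of all genes. Their median log2 difference was −0.70.

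The vitamin D members split. Cyp24a1, which breaks down active vitamin D, stood at 21.5 CPM (19.6 to 23.5) in the SH045 kidney and 16.2 CPM (12.6 to 20.4) in the Vehicle-labelled kidney, a small excess that turned under TMM and median-of-ratios scaling. Cyp27b1, which makes active vitamin D, had 122 UMIs in the SH045 kidney and 1 UMI in the Vehicle-labelled kidney, a ratio of 23.6 with an interval from 4.15 to 939. At 5.45 CPM it was below the level taken as measured. Cyp27a1 stood at 19.3 CPM with SH045 against 23.8 CPM in the Vehicle-labelled kidney, and Cyp2r1, the hydroxylase of the liver step, had 35 UMIs (1.56 CPM) with SH045 against 10 UMIs (2.31 CPM) in the Vehicle-labelled kidney. Of 12 measured genes of vitamin D handling, 4 were higher and 7 lower, beside 52.2% and 11.8% of all genes. The vitamin D receptor Vdr stood at 76.8 CPM in the SH045 kidney and 228 CPM in the Vehicle-labelled kidney, and the calcium binding protein S100g at 157 CPM with SH045 against 9354 CPM in the Vehicle-labelled kidney, 59.7-fold lower. The 8 markers of the distal convoluted and connecting tubule, where S100g is also made, include S100g itself. Calb1 and Trpv5 are likewise in both lists. These markers summed to 620 CPM in the SH045 kidney and 23033 CPM in the Vehicle-labelled kidney, with 7 lower and 1 higher. Their sum thus partly repeats the S100g value. Lrp2 and Cubn of the vitamin D list are also among the markers of the first proximal tubule segments, given below. The part of distal and proximal tubule cells in the vitamin D values was not tested.

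Cyp26b1, which degrades retinoic acid, had 102 UMIs and 4.56 CPM (3.71 to 5.53) in the SH045 kidney, against 141 UMIs and 32.6 CPM (27.4 to 38.4) in the Vehicle-labelled kidney, 7.15-fold lower (5.5 to 9.32). Cyp26a1 had 10 UMIs (0.447 CPM) with SH045 against 2 UMIs (0.462 CPM) in the Vehicle-labelled kidney, and Cyp26c1 none. Of 9 measured genes of retinoid handling, 7 were higher and 2 lower, beside 52.2% and 11.8% of all genes. Aldh1a2, which makes retinoic acid, stood at 162 CPM in the SH045 kidney and 3.47 CPM in the Vehicle-labelled kidney, 46.7-fold higher (28.3 to 83.6). The retinol receptor Stra6 had 865 UMIs in the SH045 kidney and 0 in the Vehicle-labelled kidney.

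Steroidogenic members were near absent. Cyp11a1, Cyp11b1, Cyp21a1 and Cyp17a1 had 2, 4, 4 and 1 UMIs in the SH045 kidney and 0 in the Vehicle-labelled kidney, while Cyp11b2 and the aromatase gene Cyp19a1 had 0 in both. The 6 adrenal cortex markers summed to 44.2 CPM in the SH045 kidney and 18.7 CPM in the Vehicle-labelled kidney, with the only measured one higher, and Nr5a1 and Hsd3b1 at 0 UMIs in both. Their part in these counts was not tested. The bile acid genes Cyp7a1 and Cyp8b1 had 0 UMIs in the SH045 kidney and 0 and 1 in the Vehicle-labelled kidney, and Cyp46a1, the brain cholesterol hydroxylase, stood at 1.34 CPM with SH045 against 2.08 CPM in the Vehicle-labelled kidney. The CYP3 family, the main drug-metabolising family of liver, had 51 UMIs (2.28 CPM) in the SH045 kidney, all of Cyp3a13, and 4 UMIs (0.924 CPM) in the Vehicle-labelled kidney. The 8 hepatocyte markers summed to 74.2 CPM in the SH045 kidney and 187 CPM in the Vehicle-labelled kidney, with Alb at 0.313 CPM with SH045 against 3.47 CPM in the Vehicle-labelled kidney. Their part in the levels above was not tested.

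The counts of the lists in this paragraph stand beside 11.8% lower and 52.2% higher among all genes, and 25.7% and 25.4% relative to the all-gene median. Of 11 redox partners of P450 enzymes 1 was lower and 2 higher, and relative to the all-gene median 7 were lower and 0 higher. The lower gene was Cyb5a, with 433 CPM in the SH045 kidney and 1099 CPM in the Vehicle-labelled kidney, while the oxidoreductase Por stood at 150 CPM with SH045 against 209 CPM in the Vehicle-labelled kidney, within 1.5-fold. Of 12 measured genes of haem synthesis and breakdown, 2 were lower and 0 higher, and relative to the all-gene median 10 were lower. Among other oxidation and conjugation enzymes, all 4 measured flavin monooxygenases were lower, led by Fmo1 with 99.0 CPM with SH045 against 284 CPM in the Vehicle-labelled kidney, and of 15 measured conjugation enzymes 10 were lower and 2 higher. Of 15 measured genes of the peroxisome proliferator response, 9 were lower and 3 higher, Acaa1b standing at 94.4 CPM in the SH045 kidney and 595 CPM in the Vehicle-labelled kidney.

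Among 16 measured receptors and other regulators of P450 genes, 7 were higher and 4 lower, beside 52.2% and 11.8% of all genes. Relative to the all-gene median 3 were higher and 8 lower, beside 25.4% and 25.7% of all genes. The tubule factor Hnf4a stood at 116 CPM in the SH045 kidney and 264 CPM in the Vehicle-labelled kidney, 2.26-fold lower (log2 −1.17). The injury-responsive factor Cebpb stood at 237 CPM in the SH045 kidney and 13.9 CPM in the Vehicle-labelled kidney, 17.1-fold higher. The aryl hydrocarbon receptor Ahr stood at 19.6 CPM with SH045 against 3.00 CPM in the Vehicle-labelled kidney, 6.53-fold higher (3.78 to 12.4). Of 12 measured eicosanoid enzymes 6 were higher and 2 lower, near the shares of all genes, and relative to the all-gene median 3 were higher and 3 lower. The lower ones were Ptges and Ephx2, which hydrolyses the epoxides that CYP2J enzymes make and stood at 104 CPM with SH045 against 321 CPM in the Vehicle-labelled kidney. Genes of male kidney were present in both sections: the Y-linked Ddx3y stood at 32.0 CPM with SH045 against 16.2 CPM in the Vehicle-labelled kidney. Xist had 1 UMI with SH045 against 0 in the Vehicle-labelled kidney. The androgen-dependent Kap stood at 12406 CPM in the SH045 kidney and 41399 CPM in the Vehicle-labelled kidney. Of the 5 measured genes listed as differing between male and female mouse kidney, Kap among them, 3 were lower and 2 higher.

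Marker lists of kidney cell types differed between the sections too, in both directions. Their counts stand beside 52.2% higher and 11.8% lower among all genes. The 15 markers of the first proximal tubule segments, S1 and S2, which form its convoluted part, summed to 2356 CPM (blocks 980 to 2991) in the SH045 kidney and 11941 CPM (blocks 11514 to 12826) in the Vehicle-labelled kidney, and 14 of them were lower. The 12 markers of the straight segment S3 summed to 3461 CPM with SH045 against 3724 CPM in the Vehicle-labelled kidney, with 2 lower and 7 higher. All 12 injured tubule markers, all 8 fibroblast markers and all 8 macrophage markers were higher, with sums of 27227, 2918 and 3708 CPM in the SH045 kidney and 1585, 106 and 453 CPM in the Vehicle-labelled kidney. The part of these cells in the P450 differences was not tested. P450 UMIs per proximal marker UMI were 0.297 in the SH045 kidney and 0.332 in the Vehicle-labelled kidney.

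Scaled to the proximal markers, 9 of the 16 lower members kept the lower direction (Cyp2d12, Cyp2d26, Cyp4b1, Cyp26b1, Cyp2a5, Cyp2e1, Cyp4a14, Cyp4a12a and Cyp2d9), and the other 7 did not. Cyp4b1 was 3.39-fold lower on that scale and Cyp2e1 1.93-fold lower. When the spots of each section were ranked by proximal marker share and divided into 4 groups of nearly equal size, the P450 level was 719, 1125, 1518 and 3095 CPM in the SH045 kidney and 2851, 4896, 5766 and 6879 CPM in the Vehicle-labelled kidney, in ascending order of share. The proximal marker level of these groups was 1562, 2864, 4793 and 11985 CPM in the SH045 kidney. It was 7727, 14162, 16986 and 22192 CPM in the Vehicle-labelled kidney. Groups of the same rank thus differed in proximal marker level, and its part in the P450 levels was not tested.

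Across spots thinned to 2500 UMIs, the summed P450 level varied with proximal markers in both sections. Pearson's r with the S1/S2 markers was 0.55 over 788 SH045 spots and 0.63 over 561 Vehicle spots, and with the S3 markers 0.51 over the SH045 spots and 0.53 over the Vehicle spots. With the fibroblast markers r was −0.38 in the SH045 kidney and −0.23 in the Vehicle-labelled kidney, and with the injured tubule markers −0.30 in the SH045 kidney and −0.54 in the Vehicle-labelled kidney. The distal convoluted and connecting tubule markers gave 0.015 over SH045 spots and −0.67 over Vehicle spots, the intercalated cell markers −0.15 over SH045 spots and −0.52 over Vehicle spots. Spots of a section share its library and are not replicates, and these values are descriptions. Within the SH045 kidney Cyp4b1 and Cyp2e1 went with S1/S2 markers (r 0.54 and 0.43) more than with S3 markers (0.22 and 0.14), whereas Cyp2a4 and Cyp7b1 went with S3 markers (0.51 and 0.37) more than with S1/S2 markers (0.23 and 0.05). Cyp1b1 followed no list, its highest r being 0.13.

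To place the members in the tissue, spots of each section were clustered with all P450 genes left out, and regions were numbered by size. The SH045 kidney gave 8 regions and the Vehicle-labelled kidney 5. In the SH045 kidney the P450 level was highest in region 6, with 4063 CPM over 56 spots, which Slc22a8, Acmsd and Miox led and which had the highest S1/S2 marker level (7857 CPM). Region 7 followed with 3335 CPM over 54 spots, led by Serpina1d and Slc22a7, and had the highest S3 marker level (13372 CPM). The lowest P450 level was 624 CPM in region 2, which Dio2 and Col6a4 led. In the Vehicle-labelled kidney the regions spanned 1303 CPM in region 5, led by the kallikrein gene Klk1, to 7016 CPM in region 2, which had the highest levels of both proximal lists.

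Regions 6 and 7 of the SH045 kidney divided the family. Cyp4b1 stood at 952 CPM in region 6 and 185 CPM in region 7, Cyp2e1 at 494 and 54.0 CPM, Cyp2a5 at 62.0 and 8.18 CPM and Cyp2d12 at 18.5 and 1.09 CPM. Cyp7b1 showed the opposite, with 22 CPM in region 6 and 295 CPM in region 7, as did Cyp2a4 with 167 and 638 CPM and Cyp2d9 with 41.8 and 159 CPM. Cyp51 stood at 114 and 243 CPM. Cyp2j5 was nearly even, at 650.2 and 714 CPM. Of the near-identical Cyp2a4 and Cyp2a5, the first was thus highest in region 7 and the second in region 6, with Cyp2a4 above Cyp2a5 in both.

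**Figure D3:**
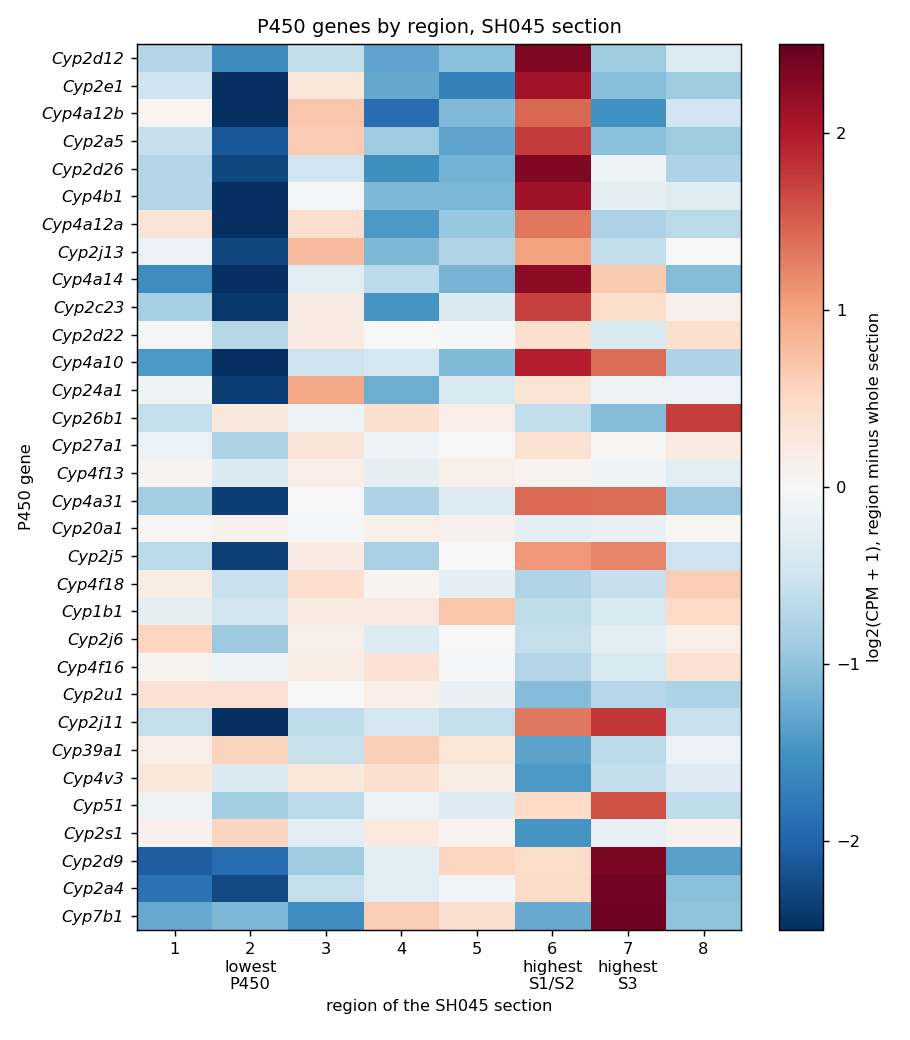
Level of the 32 measured P450 genes in each of the 8 regions of the SH045 section, as log2(CPM + 1) of the region minus that of the whole section (colour scale, ends at −2.5 and 2.5). Rows are sorted by region 6 minus region 7. Cyp2d12 and Cyp2e1 at the top are highest in region 6, Cyp2d9, Cyp2a4 and Cyp7b1 at the bottom in region 7, and most rows are lowest in region 2.

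The difference between regions 6 and 7 was set beside the difference between the sections for each measured member. Members with more in region 6 included Cyp2d12 and Cyp2c23, which passed the level only through the Vehicle-labelled kidney, and members with more in region 7 included Cyp7b1, Cyp4v3 and Cyp39a1, which passed only through the SH045 kidney, so no count is drawn from the 2 sides. Cyp4v3 and Cyp39a1 were not S3 genes by level: they were below the rest of the section in region 7, with 13.1 against 21.3 CPM and 7.63 against 13.0 CPM, and lower still in region 6. The S1/S2 and S3 marker lists also differed between the sections, and their part in these values was not tested. For the same reason, the regions in which the called members reached their highest SH045 level are not counted by call.

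**Figure D4:**
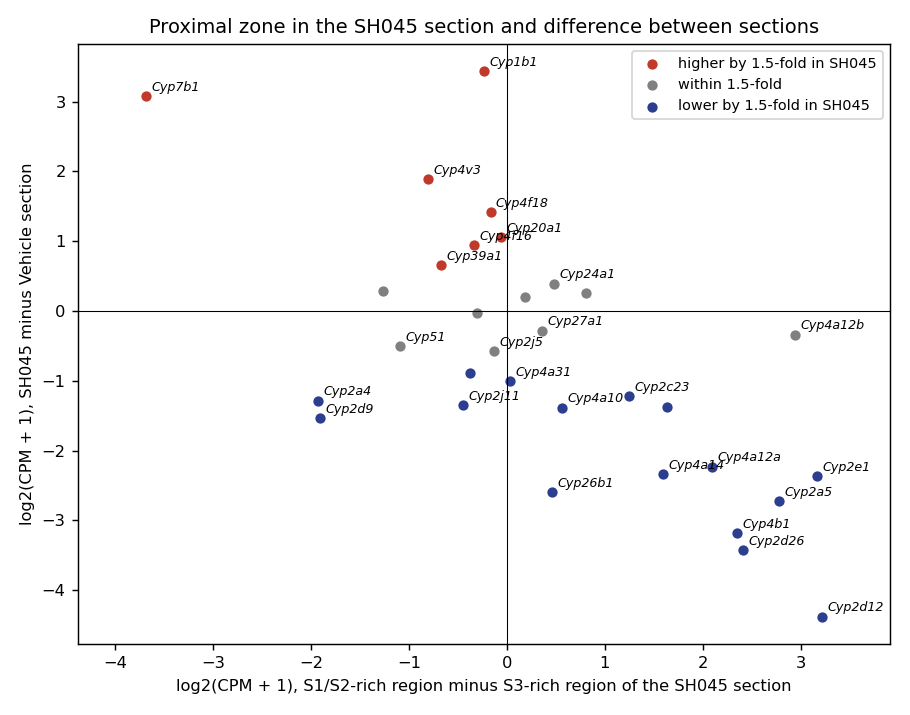
Difference of each measured P450 gene between region 6 and region 7 of the SH045 section (horizontal axis, log2(CPM + 1)) against its difference between the SH045 and Vehicle sections (vertical axis, log2(CPM + 1)). Each point is a gene, coloured by its 1.5-fold call. Cyp4b1 and Cyp2d12 lie to the right and below 0, and Cyp2d12 passed 10 CPM only through the Vehicle section. Cyp7b1, which passed 10 CPM only through the SH045 section, is at the upper left with 295 CPM in region 7.

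Some lower members were also low in the region with most S1/S2 markers. In region 6 of the SH045 kidney, 9 of the 16 lower members were still at least 1.5-fold below the whole Vehicle-labelled kidney, 7 were within 1.5-fold and 0 above. The 16 were picked as lower against that same Vehicle-labelled kidney, and no share of all genes was taken. These counts are therefore a description and no separate support for the calls. The 9 include Cyp2d12, Cyp26b1 and Cyp2u1, which passed the level only through the Vehicle-labelled kidney, and also Cyp2a4 and Cyp2d9. Those last genes stood above the whole Vehicle-labelled kidney in region 7, Cyp2a4 with 638 against 291 CPM and Cyp2d9 with 159 against 89.9 CPM. Set beside region 2 of the Vehicle-labelled kidney, its most proximal region, region 6 of the SH045 kidney had 952 against 2882 CPM of Cyp4b1, 59.3 against 122 CPM of Cyp2d26 and 18.5 against 77.4 CPM of Cyp2d12. Cyp4a10 and Cyp4a31 were nearly level there, with 372 and 213 CPM in region 6 of the SH045 kidney and 354 and 203 CPM in region 2 of the Vehicle-labelled kidney, as was Cyp2j5 with 650.2 CPM in the SH045 region and 678 CPM in the Vehicle region. The S1/S2 marker level was 7857 CPM in that SH045 region and 15754 CPM in that Vehicle region.

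Some other members were spread differently. Cyp1b1 ranged from 62.0 CPM in region 6 to 158 CPM in region 5, led by Krt14 and Sprr2f, so every SH045 region stood above the highest Vehicle region (12.6 CPM). Cyp4v3 and Cyp4f18 were lowest in region 6, with 7.03 and 5.71 CPM. Cyp26b1 reached its highest SH045 level, 17.4 CPM, in region 8, led by the podocyte gene Nphs1, and its highest Vehicle level, 55.7 CPM, in region 4, which Wt1 and Nupr1 led. Cyp24a1 and Cyp27b1 were both highest in SH045 region 3, led by Ccl5 and Vcam1, with 42.2 and 12.5 CPM, and stood at 3.35 and 0.915 CPM in region 2.

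Distance from the tissue edge separated these genes as well. In the SH045 kidney Cyp7b1 stood at 29.95 CPM in the outermost 2 steps of the grid and 220 CPM at 9 to 11 steps, and Cyp2a4 at 70.4 and 334 CPM. Cyp4b1 was lowest at that depth, with 252 CPM at the edge, 277 CPM at 5 to 6 steps and 111 CPM at 9 to 11 steps. Cyp2e1 had 135.8, 144 and 36.7 CPM at the same steps, so neither fell steadily from the edge. The S3 marker level was 2337 CPM at the edge and 7361 CPM at that depth. In the Vehicle-labelled kidney Cyp4b1 stayed between 1761 and 2141 CPM at all depths, and no such gradient of Cyp7b1 was detectable at its counts (0 to 8.60 CPM). Cyp2e1 stood there at 626 CPM at the edge and 385 CPM at 11 to 13 steps.

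**Figure D5:**
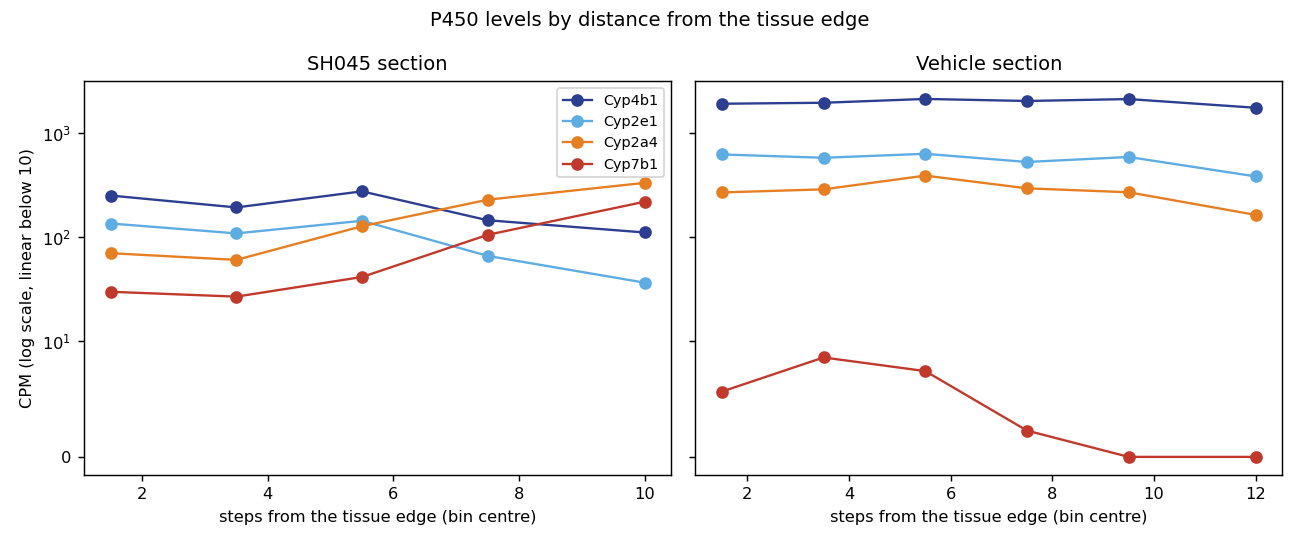
Level of Cyp4b1, Cyp2e1, Cyp2a4 and Cyp7b1 by distance from the tissue edge, in grid steps (bins of 2 steps, the last bin wider), in the SH045 section on the left and the Vehicle section on the right. The vertical axis is CPM, logarithmic above 10 and linear below, and each point pools the spots of 1 bin. Cyp7b1 and Cyp2a4 are highest deep in the SH045 section, at 220 and 334 CPM, where Cyp4b1 and Cyp2e1 are lowest.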

How the data were processed

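Visium libraries of 10 μm fresh frozen sections were made from 2 kidneys, per the labels' protocols. The authors deposited raw UMI counts per gene and spot, written by Space Ranger 2.0.1 per the file headers, on build mm10 per the submitters' processing notes. For aligner settings, annotation release and the choice of spots: not given in the sources used here. Counts were summed over all spots of each matrix and divided by the section total (CPM, pseudocount 1). With 1 section per group no test was run. TMM factors came from edgeR 4.0.16 in R 4.3.3. Regions came from Leiden clustering (scanpy 1.11.5, leidenalg 0.10.2, resolution 0.6, 2000 variable genes, 20 components, 15 neighbours) with P450 genes removed. Symbols were matched to RefSeq (GRCm38.p6), all 101 of them, and promoters taken from its windows. Spots can hold several cells.

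The members, gene lists and markers were chosen with earlier results of these data known. Named members were the 3 with most CPM in each family with a measured member, the 8 highest and 8 lowest differences, and a list of members with known single roles. In pathway lists, genes of highest level or past 4-fold could be named. Cyp4a31, Cyp2d9, Cyp2d22, Cyp2j6, Cyp2j11, Cyp2j13, Cyp2u1 and Cyp3a13, and the list genes Fmo1, Ephx2 and Ptges, were named after their values were seen. Intervals are exact Poisson for levels and exact conditional binomial for folds. The 1.5-fold calls and the fold intervals between sections were tested on simulated data, and the other calculations were not. PCR duplicates are collapsed by UMIs, and intervals leave out animal and section differences. Some genes of the lists are not reported here.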

Additional observations from a re-analysis of the deposited data

How the results depend on the processing

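No paired analysis was possible because each group has 1 section and no replicate is shared. The 7 higher members became 2 at a level of 50 CPM, 3 with TMM factors, 3 with median-of-ratios factors, 18 relative to the proximal markers and, in an alternative chosen after seeing the data, 2 at 10 CPM in both sections. The 16 lower members became 8 relative to the proximal markers and 10 in the top 1 of 4 groups of spots by proximal share. The median log2 difference of −0.73 became 0.88 relative to the proximal markers, where that of all genes was 2.02, −1.32 with TMM, −1.36 with median-of-ratios, −1.39 at a level of 50 CPM, −0.20 in that top group and −0.15 with every member that had a UMI. The summed log2 difference of −1.59 became −2.20 with TMM, −2.24 with median-of-ratios, −1.68 without mitochondrially encoded genes, −0.16 relative to the proximal markers, −1.74 with thinned spots, −1.15 in that top group and −1.09 without Cyp4b1, the last also chosen after seeing the data. Relative to the proximal markers Cyp2a4, Cyp2c23 and Cyp4a10 turned to 0.13, 0.11 and 0.030. That scale divides by markers which were themselves lower in the SH045 section.

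The correlations with S1/S2 and S3 markers in the SH045 section were 0.79 and 0.72 at full depth. In the Vehicle section they were 0.38 and 0.36 at 1000 UMIs per spot, and 0.45 for S1/S2 by Spearman's rho. Clustering with the P450 genes in put the highest P450 level of an SH045 region at 3348 CPM in place of 4063. The cause of these changes was not tested. Pseudocounts, other filters on low levels, tissue flags, spot depth, mitochondrial share and the outer ring of spots left both counts within 1.5 times. The Vehicle section's fewer UMIs limit all members below about 3 counts, 0.693 CPM.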
